A study of Mus musculus with 22 samples.

Results

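The genes that move zinc and magnesium ions into, out of and between the compartments of the cell, and those that buffer zinc, were examined in developing mouse molars. They were chosen by gene symbol alone. The rule took the Slc30a zinc exporters (ZnT proteins) and the Slc39a zinc importers (ZIP proteins). It also took the Slc41a, Cnnm, Trpm6, Trpm7 and Magt1 genes of magnesium transport. Last came the metallothioneins Mt1 to Mt4 and the transcription factor gene Mtf1. The rule found 38 of the 28711 genes in the authors' table of normalised values: 9 zinc exporters, 14 zinc importers, 5 metallothionein and Mtf1 genes, and 10 magnesium genes.

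Total RNA of first mandibular molars was sequenced in 22 libraries. These were P11 Het (n = 5), P11 WT (n = 5), P5 Het (n = 6) and P5 WT (n = 6). P11 and P5 are postnatal days 11 and 5, and n counts libraries, not mice. Het mice carry the Tgfbr2-G357W/+ genotype, in which 1 copy of the TGF-beta receptor gene Tgfbr2 has the G357W mutation, and serve as a model of Loeys-Dietz syndrome type II, while WT mice are Tgfbr2-+/+ littermates. The mutation is carried in the germ line, so every cell of the Het molar has it, and no Cre line or transgene is named in the labels. Whole molars were used, so each library is a mixture of tissues, and in bulk samples fewer cells of a type and less RNA per cell cannot be told apart.

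Zinc enters the cytosol through ZIP proteins and leaves it through ZnT proteins, across the plasma membrane or the membranes of the secretory pathway. Metallothioneins are small cysteine-rich proteins that bind zinc and copper. In mice Mt1 and Mt2 are switched on by MTF1, a zinc-sensing transcription factor that binds metal response elements in their promoters. Magnesium enters through the TRPM6 and TRPM7 channels and is moved by SLC41 and CNNM proteins. The tooth depends on both ions: the enamel proteinase MMP20 and alkaline phosphatase are zinc enzymes, and in people mutations of CNNM4 cause Jalili syndrome, which combines retinal dystrophy with defective enamel.

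Library totals ranged from 32904047 to 45343814 counts, and 35 of the 38 genes passed the filter on low counts, among 21510 genes tested. Trpm6, Mt4 and Slc39a12 did not pass it. Levels are given in CPM, the counts scaled to a common library size with TMM factors. A difference counts as called where edgeR's quasi-likelihood test, adjusted by Benjamini-Hochberg across the 21510 genes, gave a p below 0.05. The Tgfbr2 transcript itself was not called between genotypes, at 105 ± 6.43 CPM in P11 Het and 112 ± 4.76 CPM in P11 WT molars (SD, n = 5 each; log2 fold change -0.09, adjusted p = 0.725), and with a log2 fold change of 0.05 at P5 (adjusted p = 0.959). Only 5 Het and 8 WT mice are mentioned in the series text. With 22 libraries some would then share an animal, and p-values, which measure the spread between libraries, may be too small. P5 Het 6 is called P5 in its title and library name and P11 in its tissue and treatment fields. It was kept at P5: its 6 maturation-stage ameloblast markers summed to 1305 CPM, against 59274 to 83502 CPM in the P11 Het libraries. Without it, edgeR's counts of called genes among the 38 were the same in each comparison.

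Marker genes of the tissues a molar can hold differed strongly between the ages. The summed level of the 4 secretory-stage ameloblast markers (Amelx, Enam, Ambn, Mmp20) was 18275 to 44731 CPM in P11 Het and 17338 to 26074 CPM in P11 WT, against 122287 to 162063 CPM in P5 Het and 152808 to 168352 CPM in P5 WT molars. The sum of the 6 maturation-stage markers (Klk4, Amtn, Odam, Slc24a4, Odaph, Wdr72) was 59274 to 83502 CPM in P11 Het and 59685 to 71331 CPM in P11 WT, against 818 to 1605 CPM in P5 Het and 1285 to 2468 CPM in P5 WT molars. Within Het and within WT, all 4 secretory-stage markers were lower at P11 and all 6 maturation-stage markers higher. The 5 osteoclast and 5 erythroid markers were all higher at P11 in both genotypes, as were the 6 oral keratinocyte markers tested, while 2 of 3 odontoblast markers were lower and 1 higher in both. Mmp20 and Mmp9 stand both in these marker lists and among the zinc enzymes below. Of the 5 myeloid markers 2 were higher and 1 lower in both genotypes. Among the 5 nerve and Schwann cell markers 4 were higher and 1 lower in both, though the median of their summed level was lower at P11. That median was 132 CPM in P11 Het and 139 in P11 WT, against 181 in P5 Het and 175 in P5 WT. Of 4 endothelial markers, 2 were higher and 1 lower in Het, and 3 were higher in WT. Of 6 muscle markers tested, 2 were higher in Het and 4 in WT. No marker list had a gene at 0 in every library of a group, and the part of these shifts in the results below was not tested.

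Per kilobase of exon, which allows a rough comparison of different genes, single genes carried most of the summed level of the ZIP and of the magnesium genes. Exon length counts every base that any annotated transcript has as exon, so levels per kb and ranks depend on the annotation. For Mt1 that length, 1246 bases, is the whole annotated gene. Slc39a1, an importer of the plasma membrane, stood highest at P11, with 629.8 ± 124 CPM per kb in Het and 498 ± 40.4 CPM per kb in WT molars (SD, n = 5 each), and its P5 levels were 383 ± 62.4 in Het and 395 ± 76.9 CPM per kb in WT (SD, n = 6 each). Cnnm4, the magnesium transporter of Jalili syndrome, stood at 517 ± 57.1 CPM per kb in P11 Het and 372 ± 83.4 in P11 WT molars, and at 442 ± 54.4 CPM per kb in P5 Het and 437 ± 67.6 in P5 WT molars. These 2 genes held the first and second place in each group, and their ranges over libraries overlapped in each group. Trpm7, a channel fused to a protein kinase, came after them in all groups, with levels per kb of 135 ± 11.5 in P11 Het, 117 ± 13.5 in P11 WT, 97.0 ± 6.48 in P5 Het and 100.3 ± 6.35 in P5 WT.

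Slc39a1 alone made up 83.3 ± 2.53% of the summed level per kb of the ZIP genes in P11 Het and 80.1 ± 1.38% in P11 WT molars, and 72.2 ± 2.85% in P5 Het and 71.9 ± 3.52% in P5 WT molars. Cnnm4 took 70.2 ± 1.87% of the magnesium sum in P11 Het and 66.4 ± 3.91% in P11 WT, and 70.8 ± 3.91% in P5 Het and 68.7 ± 2.15% in P5 WT molars. The ZnT genes were more even and lower in sum, at 44.6 ± 1.34 CPM per kb in P11 Het, 43.5 ± 1.24 in P11 WT, 47.2 ± 2.24 in P5 Het and 47.2 ± 2.44 in P5 WT molars. At the other end, Trpm6, Slc39a12, Cnnm1, Slc30a3 and Slc30a10 stayed under 0.15 CPM per kb in each group mean. Trpm6, the magnesium channel of kidney and gut, had 1 to 17 counts per P11 Het library, 0 to 25 per P11 WT, 1 to 8 per P5 Het and 0 to 2 per P5 WT library. Slc39a12, a ZIP known mainly from brain, had at most 11 counts in any library.

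**Figure D1:**
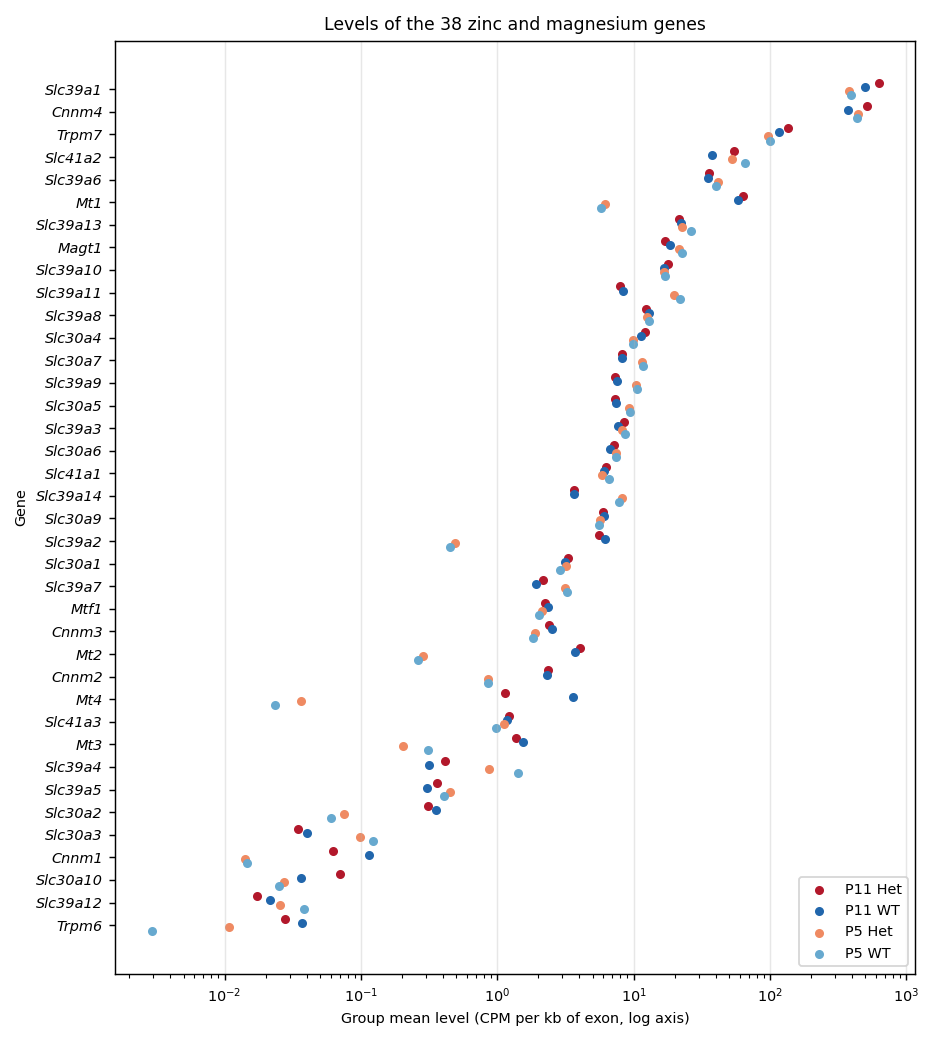
Group mean levels of the 38 genes in CPM per kilobase of exon on a log axis, 1 gene per line and 1 point per group (P11 Het, P11 WT, P5 Het, P5 WT). Slc39a1, Cnnm4 and Trpm7 lie farthest right in all groups, and Mt1 to Mt4 and Slc39a2 show wide gaps between the P11 and P5 points.

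P11 was compared with P5 within each genotype. Each library name starts its number with a digit from 1 to 5 (the prefix below), and the labels do not say what it stands for: prefixes 1 and 2 are P11 libraries and 3, 4 and 5 are P5 libraries, so prefix and age cannot be told apart. In Het molars 11 of the 35 tested genes were higher at P11 and 9 lower, where 24.4% and 23.4% of all genes tested were called higher and lower. In WT molars 11 were higher and 12 lower, against 24.8% and 24.7% of all genes. Either direction together, 20 of 35 in Het and 23 of 35 in WT were called, where the background was 47.8% in Het and 49.4% in WT. At an unadjusted p under 0.05 the counts were 22 of 35 in Het and 24 of 35 in WT, against 53.7% and 54.8% of all genes. Among the 35 were 5 genes (Cnnm1, Mt2, Mt3, Slc30a10, Slc30a3) that passed the filter through 1 age only. Of the 30 that passed at both ages, 7 were higher and 9 lower in Het, and 8 were higher and 11 lower in WT. The median log2 fold change of the 35 was 0.07 in Het and -0.03 in WT, beside -0.01 and -0.01 for all genes tested, and their median size without sign was 0.36 in Het and 0.41 in WT, beside 0.37 and 0.39. The calls went the same way for 19 genes in both genotypes, 10 higher and 9 lower, and 11 were called in neither. Of the 10, Cnnm1, Mt2 and Mt3 passed the filter through P11 only. The share of all genes tested that were called the same way in both was not computed, so this count has no background beside it.

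**Figure D2:**
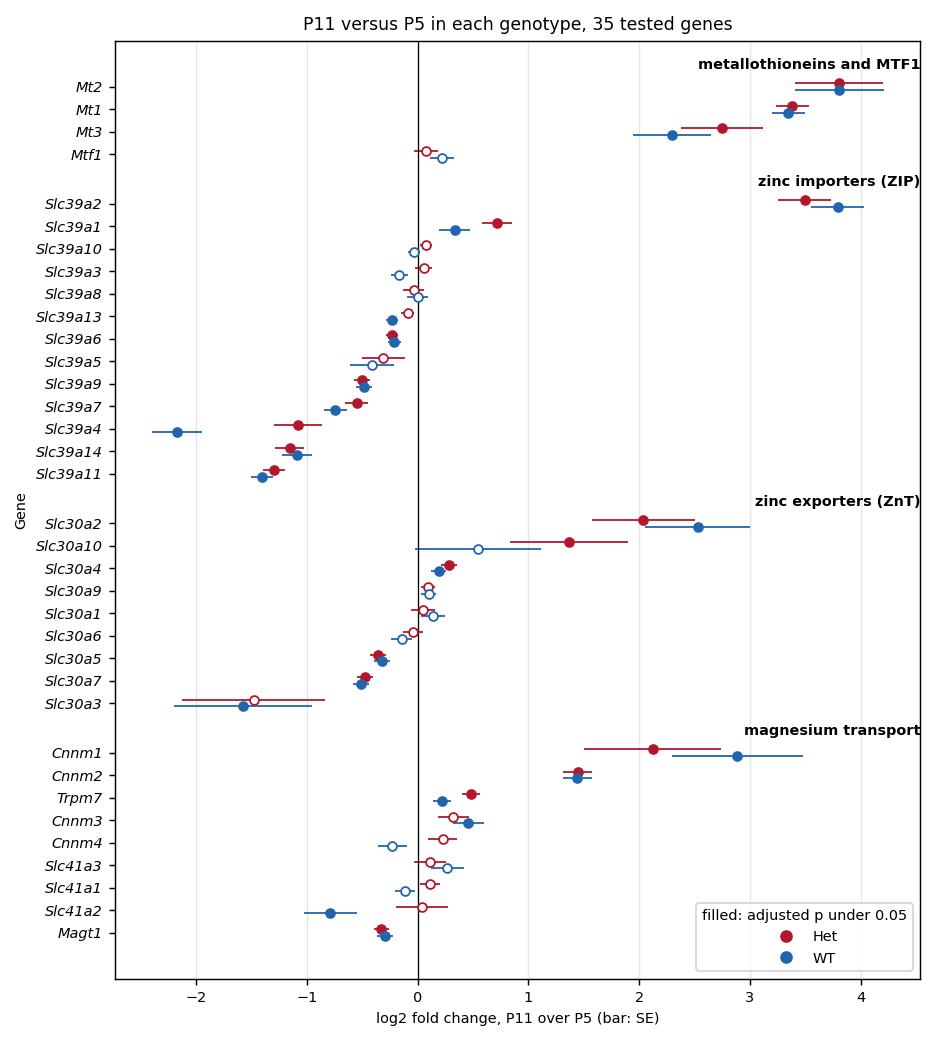
Log2 fold change of P11 over P5 for the 35 tested genes, 1 line per gene in 4 families, with the estimate in Het and in WT and bars of 1 SE. Filled points passed an adjusted p of 0.05; Mt1, Mt2, Mt3, Slc39a2, Slc30a2 and Cnnm1 lie above 2 in both genotypes, and Slc39a4, Slc39a11, Slc39a14 and Slc30a3 lie below -1 in both.

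Mt1 rose with age in both genotypes. Mt1, a widely expressed metallothionein, had 68.2, 72.0, 61.4, 90.6 and 106 CPM in the P11 Het libraries and 54.4, 66.7, 60.6, 88.3 and 96.1 CPM in the P11 WT libraries. At P5 its lowest, median and highest values were 6.53, 7.78 and 8.29 CPM in Het and 6.39, 7.05 and 8.24 CPM in WT molars. The lowest P11 library was thus far above the highest P5 library. The log2 fold change of P11 over P5 was 3.38 ± 0.15 in Het (SE; adjusted p = 7.99e-15) and 3.35 ± 0.15 in WT (adjusted p = 7.75e-15), a fold of 10.4 in Het and 10.2 in WT. Per kb, the rank of Mt1 among the 38 genes was 4 in P11 Het and P11 WT, 18 in P5 Het and 19 in P5 WT.

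Mt2, also widely expressed in mice, was far less abundant. Mt2 and Mt3 passed the filter on low counts only through their P11 libraries, so a test that finds them higher at P11 adds no support of its own, and their values are given as a description. It had 1.67, 2.86, 1.01, 3.24 and 3.18 CPM in P11 Het and 1.29, 1.502, 2.04, 3.00 and 3.17 CPM in P11 WT libraries. At P5 it had 0.0558, 0.145 and 0.373 CPM (lowest, median, highest) in P5 Het and 0.0808, 0.156 and 0.223 CPM in P5 WT. Its log2 fold change was 3.80 ± 0.40 in Het (adjusted p = 2.61e-08) and 3.81 ± 0.40 in WT (adjusted p = 2.77e-08), resting on 2 to 15 counts per P5 Het library and 3 to 8 per P5 WT library. As an antisense gene, Gm45774, covers 73.5% of its exonic bases and the libraries carry no strand information, reads of the pair cannot be told apart and its level is uncertain. Gm45774 itself had at most 13 counts in a library.

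Mt3, a metallothionein known mainly from brain, had 1.60, 1.51, 0.841, 2.03 and 1.39 CPM in P11 Het and 1.31, 1.99, 1.53, 1.82 and 1.52 CPM in P11 WT libraries. Its P5 values were 0.124, 0.205 and 0.390 CPM (lowest, median, highest) in Het and 0.0762, 0.276 and 0.7098 CPM in WT. The ages did not overlap, and the log2 fold change was 2.75 ± 0.37 in Het (adjusted p = 1.36e-06) and 2.30 ± 0.35 in WT (adjusted p = 7.94e-06). Mtf1, which encodes the factor that switches Mt1 and Mt2 on, was not called between the ages. It averaged 20.003 ± 2.77 CPM in P11 Het and 19.0 ± 1.82 in P5 Het molars (adjusted p = 0.592). In WT molars it averaged 21.1 ± 1.70 CPM at P11 and 18.1 ± 3.05 at P5 (adjusted p = 0.0946).

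The 4 metallothionein genes lie side by side on chromosome 8, which in GRCm38 holds Mt4 at chr8:94137197-94139031, Mt3 at chr8:94152607-94154146, Mt2 at chr8:94172664-94173568 and Mt1 at chr8:94179082-94180327, all on the plus strand. Their promoters were searched for the core of the metal response element, spelled TGCACNC or TGCGCNC, on both strands. The windows of Mt1, Mt2 and Mt3 are shown with that of Slc30a1, a plasma membrane zinc exporter that is a target of MTF1 in mice and was not called between ages. Each runs 5′ to 3′ on the plus strand from 250 bases before to 50 after the RefSeq start in GRCm38.p6, at chr8:94178839-94179138 for Mt1, chr8:94172368-94172667 for Mt2, chr8:94152357-94152656 for Mt3 and chr1:191906531-191906830 for Slc30a1. Capitals mark the matches, read as GNGTGCA or GNGCGCA where they lie on the opposite strand.
Mt1: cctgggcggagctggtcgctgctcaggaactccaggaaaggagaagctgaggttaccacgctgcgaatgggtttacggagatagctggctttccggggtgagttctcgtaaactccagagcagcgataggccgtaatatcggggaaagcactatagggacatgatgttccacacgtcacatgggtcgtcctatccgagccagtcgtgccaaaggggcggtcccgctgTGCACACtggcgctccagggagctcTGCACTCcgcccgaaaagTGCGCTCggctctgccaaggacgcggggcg
Mt2: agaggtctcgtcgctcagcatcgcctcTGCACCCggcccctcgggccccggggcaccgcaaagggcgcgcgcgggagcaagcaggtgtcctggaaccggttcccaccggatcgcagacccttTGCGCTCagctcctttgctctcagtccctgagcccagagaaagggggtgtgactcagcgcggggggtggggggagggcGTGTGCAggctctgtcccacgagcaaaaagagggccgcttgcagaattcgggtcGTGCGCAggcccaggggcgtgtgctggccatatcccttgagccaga
Mt3: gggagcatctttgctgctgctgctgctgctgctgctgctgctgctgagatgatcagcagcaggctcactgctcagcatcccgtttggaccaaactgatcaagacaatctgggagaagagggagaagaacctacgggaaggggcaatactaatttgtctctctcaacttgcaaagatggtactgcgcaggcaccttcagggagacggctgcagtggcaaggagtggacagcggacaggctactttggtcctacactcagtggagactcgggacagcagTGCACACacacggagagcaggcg
Slc30a1: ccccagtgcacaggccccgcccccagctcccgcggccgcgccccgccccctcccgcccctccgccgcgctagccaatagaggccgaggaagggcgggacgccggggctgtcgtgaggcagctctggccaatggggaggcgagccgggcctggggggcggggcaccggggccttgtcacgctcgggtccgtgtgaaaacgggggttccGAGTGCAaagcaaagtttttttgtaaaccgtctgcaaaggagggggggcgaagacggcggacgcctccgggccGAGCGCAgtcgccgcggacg

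The Mt1 window held 3 matches, all on the forward strand, and that of Mt2 held 4, of which 2 were on each strand. Mt3 had 1 match, and Slc30a1 had 2 on the reverse strand. No matches overlapped. Among 32851 RefSeq windows of 300 bases, 25.7% held at least 1 match, 7.11% at least 2, 1.97% at least 3 and 0.517% at least 4. Windows were found for 35 of the 38 genes, and 21 of them had at least 1 match in the first window listed, among them Slc30a10 and Slc30a4 with 3 each. A match to these letters describes the sequence and is no evidence of binding. Slc30a1, with 2 matches, had 17.9, 21.1, 18.4, 13.1 and 16.1 CPM in P11 Het and 18.4, 17.6, 17.96, 16.6 and 12.4 CPM in P11 WT libraries. At P5 it had 14.1, 16.5 and 19.5 CPM (lowest, median, highest) in P5 Het and 13.9, 15.4 and 15.99 CPM in P5 WT. The ages overlapped, and its log2 fold change was 0.05 ± 0.11 in Het (adjusted p = 0.76) and 0.14 ± 0.11 in WT (adjusted p = 0.316).

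**Figure D3:**
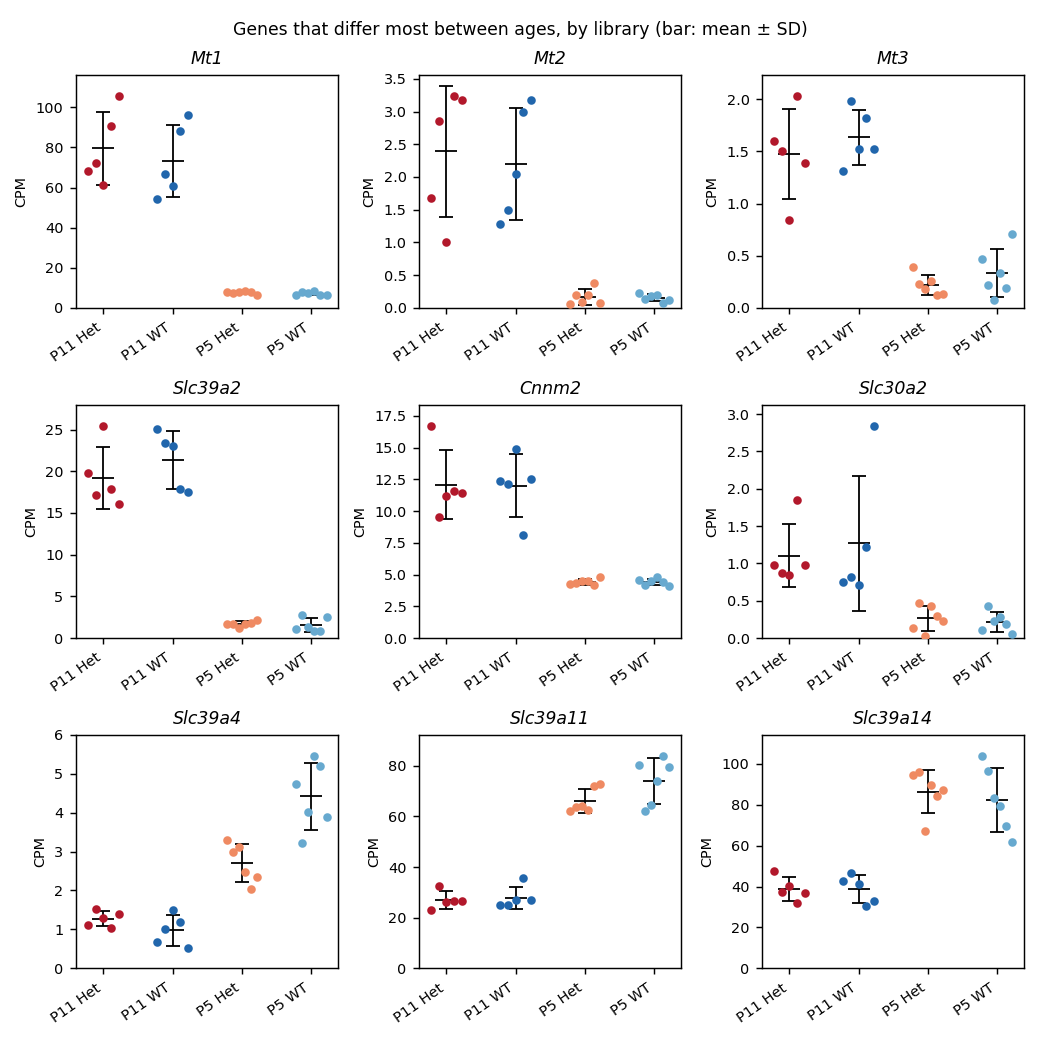
Values of 9 genes in CPM in every library, in the order P11 Het, P11 WT, P5 Het, P5 WT, with the group mean and SD. Mt1, Mt2, Mt3, Slc39a2, Cnnm2 and Slc30a2 show no overlap between the ages, and Slc39a11, Slc39a4 and Slc39a14 are lower in every P11 library than in any P5 library. The genes are shown for their large differences between ages, so the lack of overlap is a description.

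Mt4, which in mice is known from stratified squamous epithelium, behaved unlike its neighbours. It had 0.0232, 1.96, 0.144, 0.0237 and 0.116 CPM in P11 Het and 0.0515, 0.127, 0, 5.04 and 1.93 CPM in P11 WT libraries, and no P5 library passed 0.0596 CPM in Het or 0.0281 CPM in WT. The 3 libraries above 1 CPM, P11 Het 2, P11 WT 4 and P11 WT 5, were those with the highest summed oral keratinocyte markers, at 749, 1126 and 491 CPM against 48.1 to 157 CPM in the other P11 libraries. Krt4, a keratin of the oral lining, was at 271 CPM in P11 Het 2, 305 in P11 WT 4 and 81.0 in P11 WT 5. P11 WT 4 and 5 also had the highest Mt1 and Mt2 levels among P11 WT libraries. P11 Het 2 had 72.0 CPM of Mt1, below the 2 highest Het libraries. The part of the keratinocyte content in the Mt1 and Mt2 levels was not tested.

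The Mt1 and Mt2 levels at P11 also differed by library-name prefix. The 4 P11 libraries with prefix 2 had 88.3 to 106 CPM of Mt1 and the 6 with prefix 1 had 54.4 to 72.0 CPM. For Mt2 the ranges were 3.00 to 3.24 CPM with prefix 2 and 1.01 to 2.86 CPM with prefix 1. Both prefixes hold both genotypes. In WT the prefix 2 libraries are the keratinocyte-rich P11 WT 4 and 5, so prefix and keratinocyte content cannot be told apart there, and within prefix 1 the keratinocyte-rich P11 Het 2 was highest for both genes. Slc30a1 and Slc39a14 ran the other way, with Slc30a1 at 12.4 to 16.6 CPM in prefix 2 and 17.6 to 21.1 CPM in prefix 1 libraries, and Slc39a14 at 30.3 to 36.9 CPM in prefix 2 and 37.3 to 47.7 CPM in prefix 1 libraries. These 4 of 35 genes had no overlap between the prefixes, where 5.58% of all genes tested had none; 2 were higher in prefix 2 and 2 lower, against 2.34% and 3.24%. The gap between ages was larger: the lowest Mt1 value in either prefix, 54.4 CPM, compared with a highest P5 value of 8.29 CPM.

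Among the plasma membrane importers, Slc39a2 differed most with age. Slc39a2, which in people takes part in the differentiation of skin keratinocytes, had 19.7, 17.1, 25.4, 17.8 and 16.02 CPM in P11 Het and 25.1, 23.4, 23.1, 17.8 and 17.5 CPM in P11 WT libraries. Its P5 values were 1.16, 1.72 and 2.13 CPM (lowest, median, highest) in Het and 0.835, 1.18 and 2.72 CPM in WT. The ages were far apart, and the log2 fold change was 3.49 ± 0.24 in Het (adjusted p = 1.86e-11) and 3.79 ± 0.24 in WT (adjusted p = 4.68e-12). In the libraries rich in oral keratinocyte markers it was 17.1 CPM in P11 Het 2, 17.8 CPM in P11 WT 4 and 17.5 CPM in P11 WT 5. These WT libraries are those with prefix 2, so prefix and keratinocyte content cannot be told apart in WT. The part of either in the Slc39a2 level was not tested.

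Slc39a4, the importer whose loss in people causes the zinc deficiency disorder acrodermatitis enteropathica, was low and ran the other way. It had 1.116, 1.53, 1.30, 1.04 and 1.39 CPM in P11 Het and 0.670, 1.02, 1.5005, 1.18 and 0.508 CPM in P11 WT libraries. At P5 it had 2.04, 2.73 and 3.29 CPM (lowest, median, highest) in P5 Het and 3.23, 4.37 and 5.45 CPM in P5 WT. It fell in both genotypes, with a log2 fold change of -1.08 ± 0.22 for Het (adjusted p = 0.000215) and -2.17 ± 0.22 for WT (adjusted p = 1.89e-08), and no P11 library reached the lowest P5 library. Slc39a14, a broad importer of zinc, iron and manganese, fell at P11 to 38.8 ± 5.83 CPM in Het, against 86.5 ± 10.5 at P5, and to 38.7 ± 6.85 CPM in WT, against 82.4 ± 15.8 (log2 fold changes of -1.16 ± 0.13 and -1.09 ± 0.13; adjusted p = 1.48e-07 and 3.31e-07).

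The abundant importer Slc39a1 rose with age in both genotypes. It had 1154, 1658, 1848, 1228 and 1556 CPM in P11 Het and 1329, 1067, 1155, 1184 and 1152 CPM in P11 WT libraries. Its P5 values were 748, 852 and 1092 CPM (lowest, median, highest) in P5 Het and 673, 927 and 1131 CPM in P5 WT. The ages overlapped in WT, with 1 P11 library at 1067 CPM, and did not in Het. Its log2 fold change was 0.72 ± 0.14 in Het (adjusted p = 0.000134) and 0.33 ± 0.14 in WT (adjusted p = 0.0479), and the WT call was lost without the 5 libraries with raised keratinocyte or muscle markers, where it was 0.34 (adjusted p = 0.117). It was also lost on leaving out any of 10 single libraries, with adjusted p of 0.051 to 0.114. Of the other plasma membrane importers, Slc39a6 fell slightly, to 145 ± 9.82 CPM in P11 Het, against 169.8 ± 10.9 in P5 Het, and to 142 ± 4.07 CPM in P11 WT, against 164 ± 7.12 in P5 WT (adjusted p = 0.00166 in Het and 0.0034 in WT). Slc39a10, its close relative, was not called, at 108 ± 3.77 CPM in P11 Het and 103 ± 5.45 in P5 Het, and 102 ± 5.94 CPM in P11 WT and 105 ± 5.47 in P5 WT molars. Slc39a8, Slc39a3 and Slc39a5 were called in neither genotype, with adjusted p from 0.0909 to 0.992.

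Of the importers of the secretory pathway, which return zinc to the cytosol, Slc39a11, Slc39a9 and Slc39a7 were lower at P11 in both genotypes. Slc39a11, a ZIP found in the Golgi, had 22.96, 32.5, 26.1, 26.4 and 26.5 CPM in P11 Het and 25.1, 24.99, 27.1, 35.6 and 26.8 CPM in P11 WT libraries. At P5 the values were 62.1, 64.0 and 72.7 CPM (lowest, median, highest) in P5 Het and 62.2, 76.8 and 83.8 CPM in P5 WT. It fell in both, with log2 fold changes of -1.30 ± 0.10 for Het (adjusted p = 1.74e-10) and -1.41 ± 0.10 for WT (adjusted p = 3.91e-11), with no overlap between the ages. Slc39a9, also of the Golgi, fell to 74.7 ± 8.44 CPM in P11 Het, against 106 ± 7.99 in P5 Het, and to 77.2 ± 4.18 CPM in P11 WT, against 108 ± 8.54 in P5 WT (adjusted p = 3.58e-06 in Het and 5.26e-06 in WT). Slc39a7, which releases zinc from the endoplasmic reticulum, was lower in both genotypes (log2 fold change -0.55 ± 0.10 in Het and -0.74 ± 0.11 in WT; adjusted p = 0.00012 and 2.57e-06). The transcript Gm20427 covers 80.7% of its exonic bases, which makes its level uncertain. That level was 5.56 ± 0.520 CPM in P11 Het, 5.00 ± 0.615 in P11 WT, 8.14 ± 0.724 in P5 Het and 8.37 ± 0.954 in P5 WT. Slc39a13, whose loss in people causes a form of Ehlers-Danlos syndrome, was not called in Het (log2 fold change -0.09 ± 0.06; adjusted p = 0.194) and was called lower in WT (-0.23 ± 0.06; adjusted p = 0.0015). The difference between these effects was not called (adjusted p = 0.552).

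Of the zinc exporters that load the secretory pathway, Slc30a5 and Slc30a7 fell in both genotypes. In vertebrate cells they supply zinc to enzymes such as alkaline phosphatase. Slc30a7 was at 91.9 ± 5.08 CPM in P11 Het, against 128 ± 14.6 in P5 Het, and at 92.1 ± 4.68 CPM in P11 WT, against 131 ± 11.1 in P5 WT (log2 fold changes of -0.48 ± 0.07 and -0.51 ± 0.07; adjusted p = 1.03e-05 and 3.7e-06). Slc30a5 was at 53.0 ± 2.30 CPM in P11 Het, against 68.1 ± 4.86 in P5 Het, and at 54.6 ± 3.68 CPM in P11 WT, against 68.1 ± 7.81 in P5 WT (adjusted p = 0.000226 and 0.000742). Slc30a6, the partner of Slc30a5, was not called, and neither was Slc30a9, a zinc exporter of mitochondria (adjusted p from 0.219 to 0.748 over both genes and genotypes).

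Slc30a4, an exporter of intracellular vesicles, ran the other way. It rose to 66.2 ± 8.59 CPM in P11 Het, against 54.4 ± 1.82 in P5 Het, and to 62.3 ± 4.42 CPM in P11 WT, against 54.6 ± 2.30 in P5 WT (log2 fold changes of 0.28 ± 0.07 and 0.19 ± 0.07; adjusted p = 0.0014 and 0.0245). The WT call was lost without P11 WT 1, 2 or 3 (adjusted p of 0.0509 to 0.0745). Slc30a2, which loads zinc into the milk of mammary cells, had 0.976, 0.873, 0.841, 1.85 and 0.974 CPM in P11 Het and 0.747, 0.814, 0.713, 1.22 and 2.84 CPM in P11 WT libraries. At P5 it had 0.0298, 0.265 and 0.464 CPM (lowest, median, highest) in P5 Het and 0.0568, 0.209 and 0.430 CPM in P5 WT. It was low at both ages but did not overlap between them, and rose with log2 fold changes of 2.04 ± 0.46 for Het (adjusted p = 0.000821) and 2.53 ± 0.47 for WT (adjusted p = 9.67e-05).

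The remaining exporters sat near the detection limit, where 3 counts are worth 0.0654 to 0.0893 CPM. Slc30a10 passed the filter on low counts only through its P11 libraries, and Slc30a3 only through its P5 libraries. Their age tests thus add no support of their own, and the values are given as a description. Slc30a10, a manganese exporter in mammals, had 0.767, 0.436, 0.385, 0.379 and 0.0927 CPM in P11 Het and 0.103, 0.153, 0.197, 0.432 and 0.178 CPM in P11 WT libraries. At P5 it had 0.0498, 0.146 and 0.328 CPM (lowest, median, highest) in P5 Het and 0.0284, 0.150 and 0.323 CPM in P5 WT. It was called higher in Het (log2 fold change 1.37 ± 0.53; adjusted p = 0.0366) and not in WT (0.55 ± 0.57; adjusted p = 0.45), and the ages overlapped in both. The Het call was lost without P11 Het 1 (1.02; adjusted p = 0.141), as it was on leaving out any of 7 single Het libraries. Slc30a3, the exporter of synaptic vesicles, had 0.0697, 0, 0.144, 0.0473 and 0.232 CPM in P11 Het and 0.103, 0.127, 0.0738, 0.192 and 0.0761 CPM in P11 WT libraries. At P5 its values were 0.0288, 0.269 and 0.579 CPM (lowest, median, highest) in P5 Het and 0.0508, 0.350 and 0.596 CPM in P5 WT. It was not called in Het (log2 fold change -1.48 ± 0.64; adjusted p = 0.061) and was called lower in WT (-1.57 ± 0.62; adjusted p = 0.0399), with at most 21 counts in any library. The WT call was lost on leaving out any of 7 single WT libraries (adjusted p of 0.0635 to 0.0955).

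Among the magnesium genes, Cnnm2 rose most among those above 1 CPM. Cnnm2, which in people is mutated in hereditary low blood magnesium, had 16.7, 9.56, 11.2, 11.6 and 11.5 CPM in P11 Het and 12.3, 12.2, 14.9, 8.09 and 12.6 CPM in P11 WT libraries. At P5 its values were 4.21, 4.41 and 4.81 CPM (lowest, median, highest) in P5 Het and 4.12, 4.46 and 4.78 CPM in P5 WT. The ages did not overlap, and the log2 fold change was 1.45 ± 0.13 in Het (adjusted p = 2.82e-09) and 1.44 ± 0.13 in WT (adjusted p = 2.67e-09). Cnnm1, the least expressed relative, had 0.372, 0.262, 0.601, 0.166 and 0.371 CPM in P11 Het and 0.567, 0.789, 0.713, 0.528 and 0.660 CPM in P11 WT libraries. At P5 its values were 0, 0.0388 and 0.259 CPM (lowest, median, highest) in P5 Het and 0, 0.0283 and 0.254 CPM in P5 WT. It was called higher at P11 in both genotypes (2.12 ± 0.62 in Het and 2.89 ± 0.59 in WT; adjusted p = 0.00667 and 0.000257), having passed the filter only through P11 libraries and on at most 10 counts per P5 library, and the ages overlapped in Het. Cnnm3 averaged 15.3 ± 3.50 CPM in P11 Het and 12.2 ± 0.971 in P5 Het (adjusted p = 0.0635), and rose in WT to 16.2 ± 2.18 CPM at P11, against 11.8 ± 2.31 at P5 (adjusted p = 0.00891).

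Trpm7, in mice needed for normal enamel mineralisation, had 1486, 1513, 1581, 1366 and 1721 CPM in P11 Het and 1498, 1311, 1445, 1143 and 1197 CPM in P11 WT libraries. At P5 its values were 1003, 1095 and 1193 CPM (lowest, median, highest) in P5 Het and 1023, 1131 and 1214 CPM in P5 WT. It rose with log2 fold changes of 0.48 ± 0.08 for Het (adjusted p = 2.33e-05) and 0.22 ± 0.08 for WT (adjusted p = 0.0271), and the ages overlapped in WT. The WT call was lost without P11 WT 1 (0.17; adjusted p = 0.0941) or P11 WT 3 (0.18; adjusted p = 0.0792). Magt1, which besides magnesium serves the oligosaccharyltransferase of the endoplasmic reticulum, fell to 79.9 ± 5.02 CPM in P11 Het, against 100.2 ± 7.40 in P5 Het, and to 85.7 ± 7.30 CPM in P11 WT, against 105 ± 8.42 in P5 WT (adjusted p = 0.000388 and 0.000981). Slc41a1, a sodium-magnesium exchanger, and its relative Slc41a3 were not called in either genotype (adjusted p from 0.135 to 0.55), and nor was Cnnm4 (adjusted p = 0.159 in Het and 0.15 in WT).

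Slc41a2, another magnesium transporter of this family, gave unlike values in the 2 genotypes. It had 221, 287, 358, 244 and 345 CPM in P11 Het and 279, 173, 216, 183 and 164 CPM in P11 WT libraries. The P5 values were 183, 276 and 393 CPM (lowest, median, highest) in P5 Het and 167, 341 and 521 CPM in P5 WT. The ages overlapped in both genotypes. Its log2 fold change of P11 over P5 was 0.04 ± 0.23 in Het (adjusted p = 0.9), and it fell in WT with one of -0.79 ± 0.24 (adjusted p = 0.00782), a call that was lost without the 5 libraries with raised keratinocyte or muscle markers (-0.65; adjusted p = 0.0724). The difference between these effects, the genotype by age interaction, was 0.83 ± 0.33 and was not called (adjusted p = 0.43).

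Genes around these transporters were taken from 3 further lists, to be read against the 47.8% of all genes called between ages in Het and the 49.4% in WT. Of 12 tested enzymes that use zinc and pass through the secretory pathway, 7 were higher and 4 lower at P11 in Het, and 8 were higher and 3 lower in WT. The largest were Car6, a carbonic anhydrase, at 12.04 ± 7.45 CPM in P11 Het and 0.7096 ± 0.241 in P5 Het (log2 fold change 4.09 ± 0.41; adjusted p = 1.64e-08), and Mmp13, a collagenase (4.00 ± 0.12; adjusted p = 2.94e-17). The enamel proteinase gene Mmp20 fell (-2.84 ± 0.10; adjusted p = 2.24e-16), and Mmp9, a gelatinase of osteoclasts, rose (2.39 ± 0.22; adjusted p = 2.48e-09). Of 8 tested other zinc handling genes, 2 were higher and 1 lower in Het, and 2 were lower in WT. Atp13a2, a lysosomal ATPase, fell in both (-1.48 ± 0.09 in Het and -1.50 ± 0.09 in WT; adjusted p = 3.06e-12 and 2.25e-12). Of 19 tested other magnesium handling genes, 7 were higher and 6 lower in Het, and 9 were higher and 6 lower in WT. Cldn10 and Cldn19, claudins that with Cldn16 govern the passage of ions between kidney cells, ran in opposite directions: Cldn10 fell to 15.3 ± 5.48 CPM in P11 Het, against 91.5 ± 15.3 in P5 Het (-2.58 ± 0.21; adjusted p = 4.84e-10), and Cldn19 rose to 2.34 ± 1.07 CPM, against 0.124 ± 0.0997 (4.20 ± 0.44; adjusted p = 2.56e-08).

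Het and WT molars were then compared at each age. No gene of the 38 was called at P11 or at P5, where 0.0279% and 0.26% of all genes tested were called. None was called for the genotype by age interaction, where 0.0139% were. By direction, 0.0232% of all genes were higher and 0.00465% lower in Het at P11, and 0.0651% higher and 0.195% lower at P5. At an unadjusted p under 0.05, edgeR gave 4 of the 35 genes at P11, 3 at P5 and 4 for the interaction, against 9.85%, 6.22% and 10.3% of all genes tested. DESeq2 called 0 at P11, 2 at P5 and 0 for the interaction, and limma-voom called 0 in each. The shares of all genes called by these 2 tools are not given here, so their counts have no background beside them. No gene had Het libraries that were all above or all below the WT libraries at either age, where 1.36% of all genes tested had at P11 (0.614% higher and 0.748% lower in Het) and 0.851% at P5 (0.344% higher and 0.507% lower). The median log2 fold change of Het over WT was 0.03 at P11 and -0.01 at P5 for the 35 genes and -0.01 and -0.00 for all genes tested, and without sign it was 0.09 and 0.07, beside 0.13 and 0.11.

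**Figure D4:**
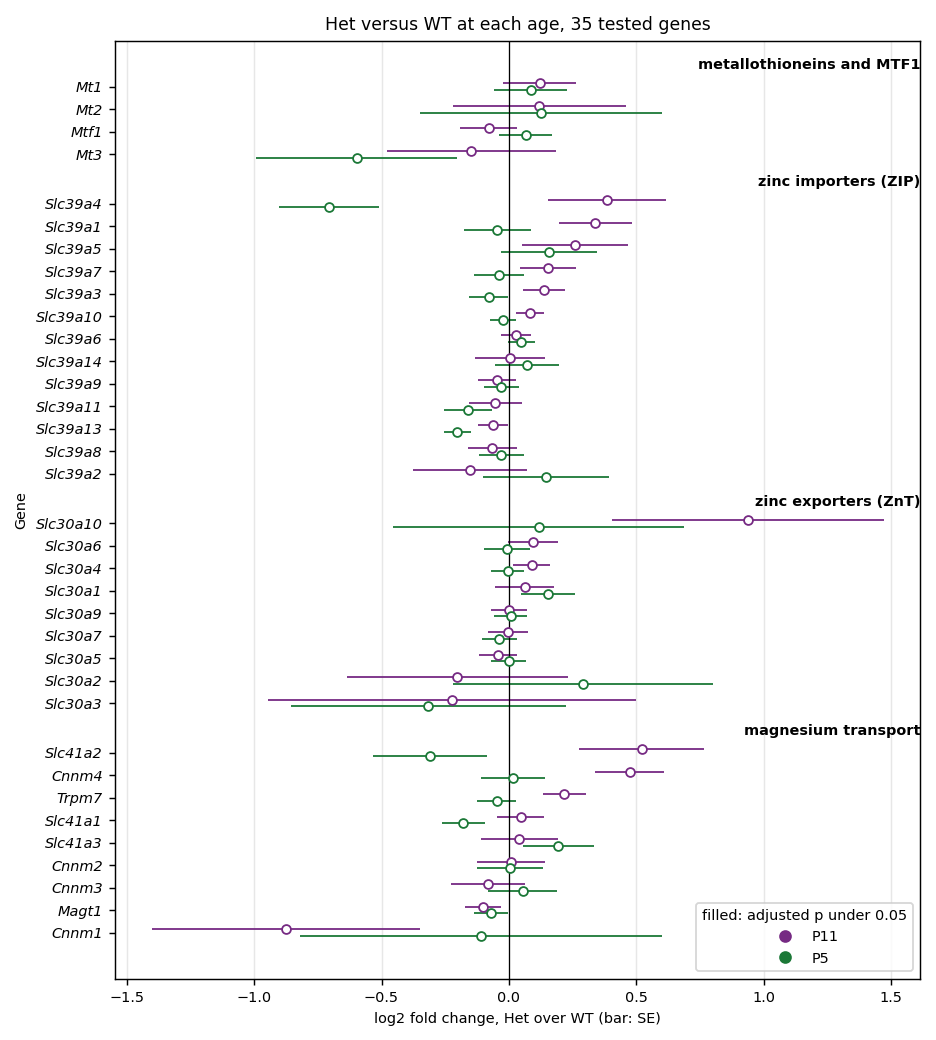
Log2 fold change of Het over WT for the 35 tested genes, 1 line per gene in 4 families, with the estimates at P11 and P5 and bars of 1 SE. No point is filled, as none passed an adjusted p of 0.05.

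At P11 the smallest p-value belonged to Cnnm4. It had 2326, 2709, 2337, 2241 and 2869.9 CPM in P11 Het and 1799.7, 1922, 2374, 1279.5 and 1617 CPM in P11 WT libraries. A single WT library, at 2374 CPM, lay above 3 of the Het libraries, and the others lay below all of them. The log2 fold change was 0.47 ± 0.14 (adjusted p = 0.274). A block for the prefix gave 0.49 (adjusted p = 0.0886). Within prefix 2 the Het libraries had 2241 to 2869.9 CPM and the WT libraries 1279.5 to 1617 CPM, and within prefix 1 the Het libraries had 2326 to 2709 CPM and the WT libraries 1799.7 to 2374 CPM. Without the libraries with raised keratinocyte or muscle markers, which at P11 are Het 2, WT 4 and WT 5, it was 0.27 (adjusted p = 0.655). At P5 Cnnm4 had 1861, 2078 and 2559 CPM (lowest, median, highest) in Het and 1788, 2034 and 2562 CPM in WT molars, and its log2 fold change was 0.02 ± 0.12 (adjusted p = 0.991).

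The other 3 genes with an unadjusted p under 0.05 at P11 were Trpm7, Slc39a1 and Slc41a2, whose values by library are given above. Each had a positive log2 fold change of Het over WT, 0.22 ± 0.08 for Trpm7 (adjusted p = 0.395), 0.34 ± 0.14 for Slc39a1 (adjusted p = 0.448) and 0.52 ± 0.25 for Slc41a2 (adjusted p = 0.493), and in each the Het and WT libraries overlapped. Without the 5 libraries with raised keratinocyte or muscle markers Trpm7 was at 0.12 (adjusted p = 0.756). The secretory-stage ameloblast markers also had greater values in Het at P11, though none was called. Their summed level had a median of 33214 CPM in P11 Het and 23665 CPM in P11 WT libraries. By edgeR 3 of these 4 markers had an unadjusted p under 0.05, against 9.85% of all genes tested. Their part in these values was not tested. Slc30a10 stood at 0.94 ± 0.53 (adjusted p = 0.584). Slc39a3, a plasma membrane importer, had 29.9, 38.4, 38.3, 33.1 and 31.6 CPM in P11 Het and 30.2, 31.2, 32.0, 32.7 and 29.6 CPM in P11 WT libraries. The P5 values were 30.6, 32.6 and 37.2 CPM (lowest, median, highest) in P5 Het and 30.1, 34.3 and 41.2 CPM in P5 WT. The groups overlapped, with a log2 fold change of 0.14 ± 0.08 at P11 (adjusted p = 0.6).

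At P5 the smallest p-values belonged to 2 zinc importers, both at lower values in Het. Slc39a13, whose loss in mice disturbs bone, tooth and connective tissue, had 93.1, 107, 104, 109.6 and 108 CPM in P11 Het and 105, 109.5, 104, 113 and 112 CPM in P11 WT libraries. At P5 its lowest, median and highest values were 104, 111 and 117 CPM in Het and 115, 129.6 and 136 CPM in WT molars. The P5 groups overlapped only where the highest Het library, at 117 CPM, passed the lowest WT library, at 115 CPM. Within prefix 3 the Het libraries had 104 and 114 CPM and the WT libraries 115 and 125 CPM, and within prefix 4 the Het libraries had 111 and 117 CPM and the WT libraries 121 to 136 CPM. The log2 fold change was -0.20 ± 0.05 at P5 (adjusted p = 0.174; unadjusted p = 0.000971), and -0.18 with the prefix as a block (adjusted p = 0.319), where the prefix 5 libraries, both P5 Het, add nothing.

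Slc39a4 had P5 values of 2.04 to 3.29 CPM in Het and 3.23 to 5.45 CPM in WT molars, again overlapping in a single pair of libraries. Its log2 fold change at P5 was -0.71 ± 0.20 (adjusted p = 0.211), and -0.56 with the prefix as a block (adjusted p = 0.616). Without the 5 libraries with raised keratinocyte or muscle markers it was -0.59 (adjusted p = 0.584), and that of Slc39a13 was -0.22 (adjusted p = 0.498). DESeq2 called both importers at P5, Slc39a13 at -0.20 (adjusted p = 0.0449) and Slc39a4 at -0.71 (adjusted p = 0.0309). The share of all genes that DESeq2 called at P5 is not given, so these calls are a description. At P5 the 6 maturation-stage ameloblast markers summed to 818 to 1605 CPM in Het and 1285 to 2468 CPM in WT molars. Of these markers 1 was called lower in Het, where 0.195% of all genes tested were. By edgeR 5 of the 6 had an unadjusted p under 0.05, against 6.22% of all genes tested. Their median log2 fold change of Het over WT was -0.93, and the part of these markers in the Slc39a13 and Slc39a4 values was not tested. At P11 the Het to WT log2 fold change of Slc39a4 was 0.38 ± 0.23 (adjusted p = 0.604), so the effects at the 2 ages differed in sign. Their difference, the interaction, was 1.09 ± 0.30 and had the smallest p among the 35 genes, but was not called (adjusted p = 0.307).

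Next in order at P5 were Slc41a1, Slc39a11, Mt3 and Slc30a1. Slc41a1 had 34.1, 30.5, 31.4, 29.0 and 29.9 CPM in P11 Het and 32.6, 27.8, 31.9, 30.9 and 26.9 CPM in P11 WT libraries. The P5 values were 25.2, 28.5 and 31.4 CPM (lowest, median, highest) in P5 Het and 27.0, 32.2 and 38.7 CPM in P5 WT. Its groups overlapped at both ages, and the log2 fold change at P5 was -0.18 ± 0.08 (adjusted p = 0.784). The values at P5 were -0.16 ± 0.09 for Slc39a11 (adjusted p = 0.862), -0.60 ± 0.39 for Mt3 (adjusted p = 0.905; -0.36 with the prefix as a block) and 0.15 ± 0.11 for Slc30a1 (adjusted p = 0.908). For the interaction, Slc41a2, Cnnm4, Trpm7, Slc39a1 and Slc39a3 followed Slc39a4, all with positive values of 0.83, 0.46, 0.26, 0.38 and 0.22 and adjusted p from 0.43 to 0.506. Without the 5 libraries with raised markers the interaction was 0.78 for Slc39a4, 0.56 for Slc41a2 and 0.27 for Slc39a1. For Cnnm4 it was 0.23, for Trpm7 0.13 and for Slc39a3 0.14.

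The metallothioneins were not called with genotype. Mt1 averaged 79.6 ± 18.2 CPM in P11 Het and 73.2 ± 18.1 CPM in P11 WT (SD, n = 5 each), and 7.64 ± 0.639 CPM in P5 Het and 7.1996 ± 0.822 CPM in P5 WT molars (SD, n = 6 each). The log2 fold changes of Het over WT were 0.12 ± 0.14 at P11 and 0.08 ± 0.14 at P5 (adjusted p = 0.826 and 0.966). Mt2 stood at 0.12 ± 0.34 at P11 and 0.13 ± 0.47 at P5, and Mtf1 at -0.08 ± 0.11 and 0.07 ± 0.10. Of the other zinc and magnesium genes listed, 2 of the 12 secretory pathway zinc enzymes were called at P5, both lower in Het, where 0.26% of all genes were called and 0.195% were lower: Enpp1, the pyrophosphate-making enzyme, at 91.7 ± 14.95 CPM in P5 Het and 144 ± 34.4 CPM in P5 WT (-0.65 ± 0.13; adjusted p = 0.0226), and Mmp13 at 43.9 ± 5.53 and 66.7 ± 12.5 CPM (-0.60 ± 0.11; adjusted p = 0.0119). None was called at P11, or among the 8 other zinc handling and 19 other magnesium handling genes at either age.

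**Figure D5:**
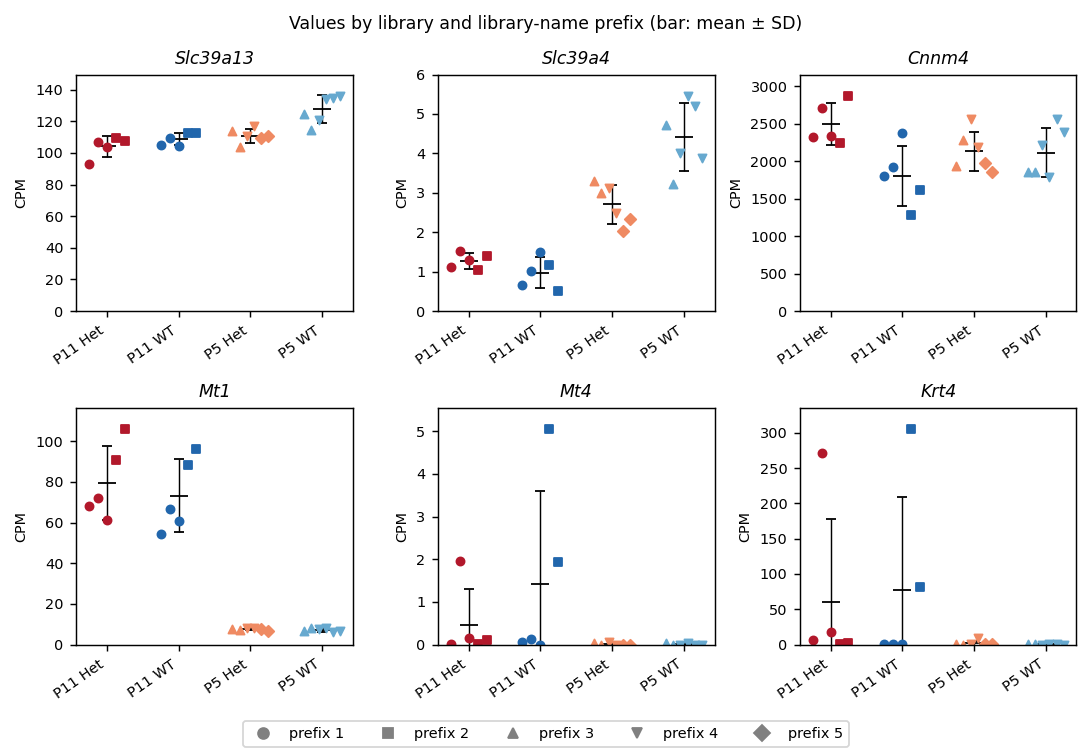
Values in CPM of Slc39a13, Slc39a4, Cnnm4, Mt1, Mt4 and the oral keratin Krt4 in every library, with the group mean and SD and a marker shape for each library-name prefix. Het and WT overlap at each age in each panel, Mt1 at P11 splits by prefix, and Mt4 and Krt4 are raised in the same 3 libraries.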

How the data were processed

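RNA was measured in 22 molar libraries (5 P11 Het, 5 P11 WT, 6 P5 Het and 6 P5 WT), made from total RNA with an unstranded Nextera XT preparation and without molecular identifiers, so floors cover counting error only. The deposited raw counts per gene came, per the submitters' processing notes, from reads aligned with STAR 2.7.3a to GRCm38; the notes also name DESeq2, edgeR and limma. The read counter is not given in the sources used here, nor is the annotation. The signal values deposited by the authors as TMM-scaled counts, 28711 features with more than 5 counts in a library, served to choose the genes. Of 55439 features in the raw table, 18 non-mouse sequences were left out (0.000109% to 0.000457% of counts).

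Counts were fitted with edgeR 4.0.16 in R 4.3.3: TMM factors (0.936 to 1.10), genes filtered by a count of 10 in enough libraries and 15 in total, and 1 quasi-likelihood model over the 4 groups (18 residual degrees of freedom). Adjusted p-values are Benjamini-Hochberg values over 21510 genes, ± after a log2 fold change is its SE (its size over the square root of F), and ± after a level is the SD. The code was tested on simulated data. Alternatives used DESeq2 1.42.0, limma 3.58.1, other filters and scalings, blocks and omissions of libraries. Levels per kilobase divide by exon length in GENCODE M21, which matched 38 of 38 genes. Replicate libraries differed beyond sampling noise (chi-square per degree of freedom 6.70 to 95.9 over 50 pairs). Values by library are given for the 8 called genes with the largest fold change in each age comparison and the 6 with the smallest p in each genotype comparison; others were named after their values were seen. The genes, lists and alternatives were chosen with earlier results of these data known.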

Additional observations from a re-analysis of the deposited data

Results flagged for a closer look

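In 152 sets of a gene in a group, 9 libraries lay farther from the rest of their group than Dixon's 95% limit for 5 or 6 values, where chance alone gives about 1 in 20 sets, or 7.6. In P11 Het, Cnnm2 was 16.7 CPM in library 1, against 9.56 to 11.6 CPM in the others. Mt4 was 1.96 CPM in P11 Het 2, against 0.0232 to 0.144 CPM, in a library with raised oral keratinocyte markers. Slc30a2 was 1.85 CPM in P11 Het 4, against 0.841 to 0.976 CPM, and 2.84 CPM in P11 WT 5, against 0.713 to 1.22 CPM. In P11 Het 3, Mtf1 was low at 15.2 CPM, against 20.3 to 22.01 CPM, and Slc41a3 was high at 4.71 CPM, against 3.06 to 3.39 CPM. P11 WT 4 had 35.6 CPM of Slc39a11, against 24.99 to 27.1 CPM, and 0.432 CPM of Slc30a10, which is 18 counts, against 0.103 to 0.197 CPM. In P5 Het 5, Slc41a3 was low at 2.86 CPM, against 3.28 to 3.40 CPM.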

How the results depend on the processing

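No named gene's direction reversed under any setting run. DESeq2 called 2 genes between genotypes at P5 (Slc39a13 and Slc39a4), where edgeR called 0. This count too has no share of all genes called by DESeq2 beside it. Leaving out each of the 22 libraries in turn gave 0 called genes in each genotype comparison and for the interaction, 19 to 21 between ages in Het (10 to 12 higher, 9 to 10 lower) and 20 to 24 in WT (9 to 12 higher, 11 to 12 lower). Over the other settings run for the age comparisons, 19 to 21 genes were called in Het and 21 to 23 in WT. Followed gene by gene were those called between ages and the 6 with the smallest p in each genotype comparison and for the interaction. A gene newly called between ages could thus not be counted as gained. Omissions left 1313 of these calls or non-calls on their side of the threshold and lost 29. Other settings left 423, lost 12 and gained 2. The calls lost were those of Slc30a3, Slc30a4, Slc39a1, Trpm7 and Slc41a2 in WT and Slc30a10 in Het, and the cause was not tested. Replicate numbers were not used as pairs, since not every same-numbered pair of Het and WT libraries correlated above 0.1: values were 0.0304 to 0.345 at P5, where 4 of 6 pairs passed it and 4 of 6 Het libraries correlated best with their own number, and -0.208 to 0.152 at P11. With the replicate number as a block, 19 genes were called between ages in Het, 22 in WT and 0 between genotypes, with Slc30a10 in Het at an adjusted p of 0.0834 and Slc30a3 in WT at 0.105. Depth limits Slc30a3, Slc30a10, Cnnm1, Trpm6, Slc39a12 and, at P5, Mt2 to Mt4.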

Other observations

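Within each age, the levels of the magnesium transporter Slc41a2 and the zinc importer Slc39a1 varied together over libraries. This pair was chosen after the values were seen because of its correlation, so the values are a description and no test is given. The points share library depth, tissue content and prefix. Over the 10 P11 libraries Pearson's r of the log2 levels was 0.89 and Spearman's rho 0.93, and r was 0.90 without the 2 libraries farthest from the median of Slc39a1. Over the 12 P5 libraries r was 0.94 and rho 0.91, and r was 0.92 without 2. Within the 6 P11 libraries of prefix 1, r and rho were 0.94, and within the 6 P5 libraries of prefix 4, r was 0.96 and rho 0.89, with r at 0.71 without 2 libraries. The other prefixes hold too few libraries. With the enamel matrix gene Ambn at P5, r was 0.76 for Slc41a2 and 0.70 for Slc39a1. Without the 2 libraries farthest from the median of Ambn, these were 0.75 and 0.61. At P11 r with Ambn was 0.53 for Slc41a2 and 0.62 for Slc39a1, and 0.11 and -0.28 without 2 libraries chosen the same way.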
